A study of Mus musculus with 18 samples.

Results

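The genes described here are 10 members of the interleukin 1 and interleukin 6 cytokine families, out of 54347 genes counted in mouse marrow-derived mesenchymal stem cells (MSC). The interleukin 1 family is represented by 6 of them, the ligands Il33 and Il18, the secreted antagonist Il1rn, the receptors Il1r1 and Il1rl1, and the shared coreceptor Il1rap. The interleukin 6 family is represented by 4, the ligands Il6, Il11 and Lif and the shared receptor chain Il6st. They were picked by symbol, and the set was chosen by measured values as well, but which values is not stated. The contrasts taken to be behind the choice are CK666 against control, in which Il1rl1 was low, and CK666 against CytoD, in which Il1rn was low. Those 2 are given as a description, without p-values for the members. CytoD against control is the difference between them, fitted to the same libraries, and is treated in the same way. Other contrasts may have been in view too, so the p-values printed for the rest may not be independent of the choice.

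RNA was taken from male C57BL/6J cells in 6 groups of 3 libraries, about a day after treatment according to the text of the study. Each condition had separate preparations of the same primary cell line, which the study made from the marrow of a small number of mice. The p-values measure the spread between these preparations, not between mice or marrow isolations. In the first experiment, cells that were never transfected were left untreated (control), or received CK666, which blocks the Arp2/3 complex and so the branching of actin filaments, or CytoD (cytochalasin D, which caps growing filaments and drives actin into the nucleus). In the second experiment every group went through siRNA transfection, with a control siRNA (siControl, called a mock siRNA in one label), an siRNA against Arp4 (siArp4), or the Arp4 siRNA followed by CK666 (siArp4+CK666). Arp4, the product of Actl6a, is a nuclear actin-related protein found in chromatin remodelling complexes. Cells given the control siRNA together with CK666 were not analysed here, so the effect of CK666 on transfected cells is seen only where Arp4 was depleted.

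Interleukin 1 family ligands signal through a pair of receptor chains, a ligand-binding chain such as IL1R1 (for interleukin 1) or ST2 (the product of Il1rl1, for interleukin 33) and the coreceptor IL1RAP, which together recruit MYD88 and IRAK kinases and switch on NF-kB. IL1RN occupies IL1R1 without recruiting the coreceptor, and a soluble form of ST2 soaks up interleukin 33. Most interleukin 6 family ligands need gp130, the product of Il6st, which works through JAK kinases and STAT3. The partner chains Il6ra, Il11ra1, Lifr and Osmr give each ligand its selectivity. Marrow stromal cells are known to answer both families and to supply interleukin 6 family cytokines to blood-forming cells and bone.

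Library totals ran from 18075610 to 24733212 estimated counts, and between 12563 and 13234 genes had 10 counts or more in a library. The knockdown target Actl6a had normalized counts of 720.1, 1127 and 841 in siControl cells, 48.9, 57.2 and 19 in siArp4 cells and 9.52, 22.9 and 17.9 in siArp4+CK666 cells, so all 6 knockdown libraries were below all 3 siControl libraries. The siControl libraries were uneven. Compared with the other libraries of its group, the log2 difference between the longest 25% and the shortest 25% of genes was 1.23 in siControl replicate 1 and -1.06 in siControl replicate 2, against -0.124 to 0.105 in control and CytoD libraries, -0.755 to 0.545 in CK666, -0.165 to 0.313 in siArp4 and -0.615 to 0.605 in siArp4+CK666 libraries.

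Marker genes of cell types moved with some groups, and their part in the results below was not tested. Mesenchymal markers (10 genes) summed to normalized counts of 191800 to 203100 in control, 101500 to 116200 in CK666, 178100 to 193400 in CytoD, 96480 to 162300 in siControl, 221500 to 250400 in siArp4 and 107700 to 128200 in siArp4+CK666 libraries, so their sums were lower with CK666 and higher with siArp4, as Il1rl1 and Il1rn were. Col1a1 and Col1a2, with means of 60080 and 99710 in control cells, made up most of each sum. Of 8 tested genes, Col1a1 and Ly6a were the 2 called in each case. Their log2 fold changes were -1.48 and -1.06 with CK666 and 1.70 and 1.42 with siArp4. In siArp4 cells Pdgfra, Pdgfrb and Col1a2 also had higher means than in siControl. Cd44 (524 against 813), Eng (19.25 against 53.7) and Itgb1 (11510 against 13190) had lower ones. With CytoD only Cd44 was called, lower at -1.05. Thy1 had at most 1 count in any library. Of 8 mast cell and basophil markers, a lineage known for high Il1rl1, the sums were 147 to 277 in control, 82.6 to 172 in CK666, 164 to 232 in CytoD, 140 to 259 in siControl, 243 to 279 in siArp4 and 147 to 251 in siArp4+CK666 libraries. Most of this came from Mcpt8, a basophil protease, with means of 119 in control, 85.3 in CK666, 55.8 in CytoD, 128 in siControl, 182 in siArp4 and 113 in siArp4+CK666 cells, and from Kit, with 14.7 to 172 per library. Cpa3, Fcer1a, Mcpt4 and Tpsb2 of that list had at most 1 count in every library. The 10 leukocyte markers summed to 66.8 to 291, with Ptprc, Cd3e and Itgam at most at 1 count. Cd68 and Lyz2 were called higher with CytoD, at 1.42 and 1.08. The siArp4+CK666 replicate 3 library stood apart with 189 normalized counts of Lyz2 and 12.6 of Adgre1, and leaving it out changed no call of a member. The 6 endothelial markers summed to 18.4 to 59.4 in control, 72.7 to 245.5 in CK666, 70.1 to 85.2 in CytoD, 15.1 to 30.2 in siControl, 14.3 to 121 in siArp4 and 49.6 to 87.8 in siArp4+CK666 libraries. Vwf was called higher with CK666 (1.99) and Kdr in siArp4+CK666 cells against siControl (2.67), whereas Cdh5 and Tie1 had at most 1 count everywhere. Bulk counts cannot tell fewer cells of a type from less RNA per cell, and this holds for every value below.

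The genes of both ligand-binding receptors and of Il1rn lie among relatives. On the GRCm38 assembly, Il1rl1 spans chr1:40429570-40465415 and Il1r1 spans chr1:40225080-40317257, both on the plus strand, within a run of 6 receptor genes of the family (Il1r2, Il1r1, Il1rl2, Il1rl1, Il18r1, Il18rap) that covers 477.6 kb. Il1rn spans chr2:24336853-24351494 at the downstream end of 6 ligand genes that cover 198.3 kb. Il1r1 overlaps a predicted gene, Gm38070, on the same strand, which had a mean count of 53.9, so part of its count is uncertain. Il18 overlaps Bco2 and Tex12 on the other strand, with mean counts of at most 0.54. RefSeq gives promoter windows of 300 bases (250 before to 50 after a start) for all 10 genes, 16 in all, with 2 separate starts for Il1rl1 and 3 for Il1rn. Il1rl1 is known to use its upstream start in mast cells and its downstream start in fibroblasts, and the starts of Il1rn are known to give an intracellular and a secreted antagonist. Counts were made per gene, so the start in use cannot be read from them. The windows of Il1rl1 and Il1rn are printed because most of the calls below concern these 2 genes. Capitals mark matches on either strand to AP-1 (TGANTCA), kappaB (GGGA and TTCC set 2 bases apart), STAT (TTCNNNGAA), C/EBP (TTGCNNAA) or TEAD (GGAATG) motifs, and the window of Il1rn that overlaps the one printed last is not shown.
Il1rl1 upstream start, chr1:40429320-40429619, plus strand: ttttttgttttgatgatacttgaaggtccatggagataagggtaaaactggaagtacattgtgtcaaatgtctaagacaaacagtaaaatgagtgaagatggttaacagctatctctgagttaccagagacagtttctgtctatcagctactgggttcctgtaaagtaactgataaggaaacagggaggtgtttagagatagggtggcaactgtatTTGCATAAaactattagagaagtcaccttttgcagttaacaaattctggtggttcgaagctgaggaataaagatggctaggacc
Il1rl1 downstream start, chr1:40439379-40439678, plus strand: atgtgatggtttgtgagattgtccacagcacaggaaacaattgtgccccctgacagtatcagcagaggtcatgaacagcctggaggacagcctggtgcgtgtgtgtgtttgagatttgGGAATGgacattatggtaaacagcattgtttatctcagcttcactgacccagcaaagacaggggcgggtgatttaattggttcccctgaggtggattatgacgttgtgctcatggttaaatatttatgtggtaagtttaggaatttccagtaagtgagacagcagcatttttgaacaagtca
Il1rn upstream start, chr2:24336610-24336909, plus strand: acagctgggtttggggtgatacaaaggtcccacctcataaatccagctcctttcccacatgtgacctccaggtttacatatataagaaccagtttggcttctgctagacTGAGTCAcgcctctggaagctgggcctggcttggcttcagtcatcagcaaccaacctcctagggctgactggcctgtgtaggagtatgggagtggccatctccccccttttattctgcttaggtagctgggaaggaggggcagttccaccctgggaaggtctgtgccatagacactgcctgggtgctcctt
Il1rn downstream start, chr2:24345121-24345420, plus strand: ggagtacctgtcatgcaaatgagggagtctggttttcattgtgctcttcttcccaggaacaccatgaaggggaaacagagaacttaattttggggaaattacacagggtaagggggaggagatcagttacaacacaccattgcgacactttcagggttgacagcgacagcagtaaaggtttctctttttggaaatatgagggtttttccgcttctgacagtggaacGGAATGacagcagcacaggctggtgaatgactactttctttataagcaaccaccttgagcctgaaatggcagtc
The upstream Il1rl1 window holds 1 C/EBP match and the downstream one 1 TEAD match. The upstream Il1rn window holds 1 AP-1 match, the Il1rn window not shown none of the 5 motifs, and the window printed last 1 TEAD match. Over all 32851 mouse promoter windows of this length, 7.81% hold the AP-1 letters, 1.47% the kappaB letters, 8.30% the STAT letters, 10.8% the C/EBP letters and 14.7% the TEAD letters. Among the other members, the Il1r1 windows hold 1 C/EBP and 2 TEAD matches, the Il33 windows 1 C/EBP and 2 TEAD matches, the Il11 windows 1 AP-1 match, the Il6 window holds 1 AP-1, 1 kappaB and 1 C/EBP match, the Lif window 1 AP-1 match, and the Il18, Il1rap and Il6st windows none.

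Levels between genes are compared as mean normalized count per kilobase of annotated exon. In control cells Il6st was the most abundant member at 568 ± 30.4 per kb (SD, n = 3), followed by Il1rn at 253 ± 29, Il1rl1 at 98.2 ± 10.3 and Il1r1 at 55.8 ± 6.05, and the libraries of these neighbours in the order did not overlap. Il1rap, at 5.47 ± 0.807 per kb, came well below, and from it downwards each gene overlapped the next, through Il18, Lif, Il6 and Il11 to Il33. The order shifted between groups. In CK666 cells Il1rn stood at 21.3 ± 9.63 per kb, where its libraries overlapped those of Lif. Il1rl1, at 5.76 ± 0.987 per kb, overlapped Il1rap there. In siArp4 cells Il1rn led at 871 ± 95.4 per kb and Il1rl1 at 278 ± 47.4 passed Il6st at 181 ± 31.7, with no overlap between the libraries of either pair. Il33, Il6 and Il11 stayed below 4 per kb in every group.

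**Figure D1:**
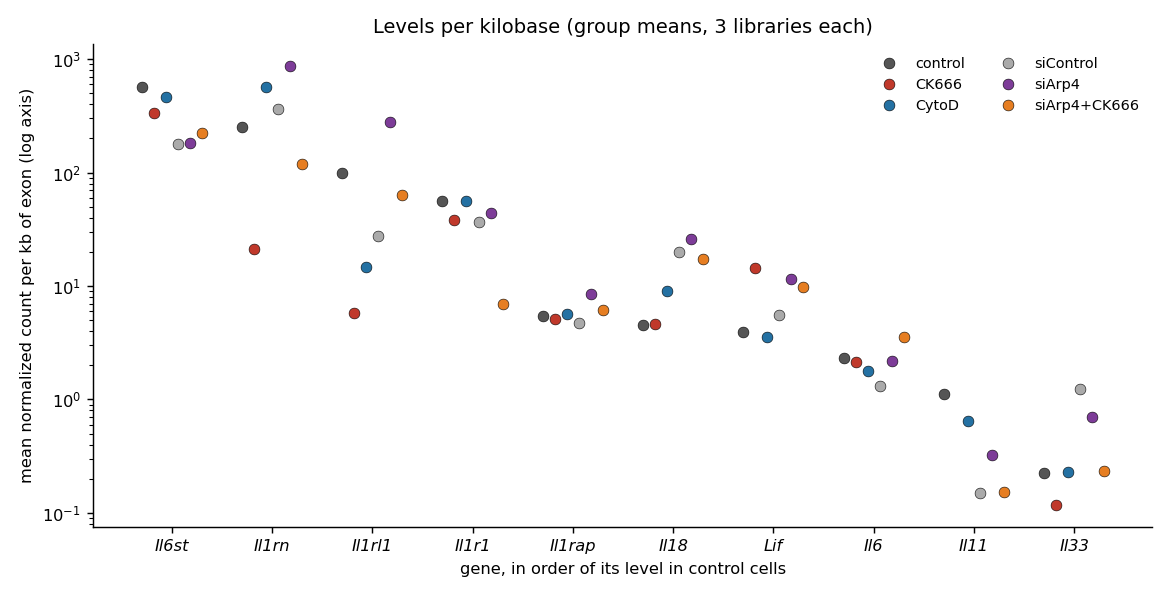
Mean normalized count per kilobase of exon (log axis) for the 10 genes in each of the 6 groups, each point the mean of 3 libraries scaled within its experiment. Il6st, Il1rn, Il1rl1 and Il1r1 sit highest in control cells, and the points of Il1rl1 and Il1rn spread furthest, from 5.76 in CK666 to 278 in siArp4 cells for Il1rl1; Il11 in CK666 cells, at 0, is not drawn.

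Calls required a fitted log2 fold change beyond 1 in either direction together with an adjusted p (DESeq2, Benjamini-Hochberg over all genes tested) below 0.01. Il33 and Il11 were too scarce to be tested in any comparison, and Il6 was not tested in CytoD cells against control or in the comparison of CK666 effects. CK666 against control, taken to be behind the choice of genes, called 1 of 8 tested members higher (Lif) and 2 lower (Il1rl1 and Il1rn), where 4.89% of all tested genes were called higher and 6.06% lower. CK666 against CytoD, taken as used too, called the same members in the same directions beside 5.08% higher and 6.74% lower, and nothing is read from the counts of either contrast. CytoD against control, the difference of these 2 contrasts, called 1 of 7 higher (Il1rn) and 1 lower (Il1rl1). The shares of all genes were 4.80% and 4.32%, and nothing is read from this count either. The siArp4 cells differed from siControl in 2 of 8 members, both higher (Il1rl1 and Il1rn) and none lower, beside 6.69% and 9.49%. The siArp4+CK666 cells differed from siControl in 1 member called higher (Il1rl1) and 2 lower (Il1rn and Il1r1) of 8, beside 8.06% and 12.4%. Adding CK666 to siArp4 cells called 3 of 8 lower (Il1rn, Il1r1 and Il1rl1) and none higher, beside 4.12% and 1.63% of all genes. Groups of 3 libraries often separate in these data. They did not overlap for 5 of 8 tested members in CK666 against control, beside 47.5% of all tested genes, and for 5 of 8 in CK666 against CytoD, beside 49.3%. The count was 3 of 7 in CytoD against control (58.9% of all genes), 4 of 8 in siArp4 against siControl (43.5%), 3 of 8 in siArp4+CK666 against siControl (43.1%) and 4 of 8 in siArp4+CK666 against siArp4 (37.8%). A member whose groups do not overlap is thus no exception among genes. The median log2 fold change of the tested members was -0.34 in CK666 against control, -0.50 in CK666 against CytoD and -0.00 in CytoD against control. In the contrasts of the second experiment, in the order given, it was 0.81, 0.33 and -0.53. Over all genes tested the median stayed between -0.05 and 0.02. Contrasts within an experiment share libraries, so their calls are not separate evidence.

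**Figure D2:**
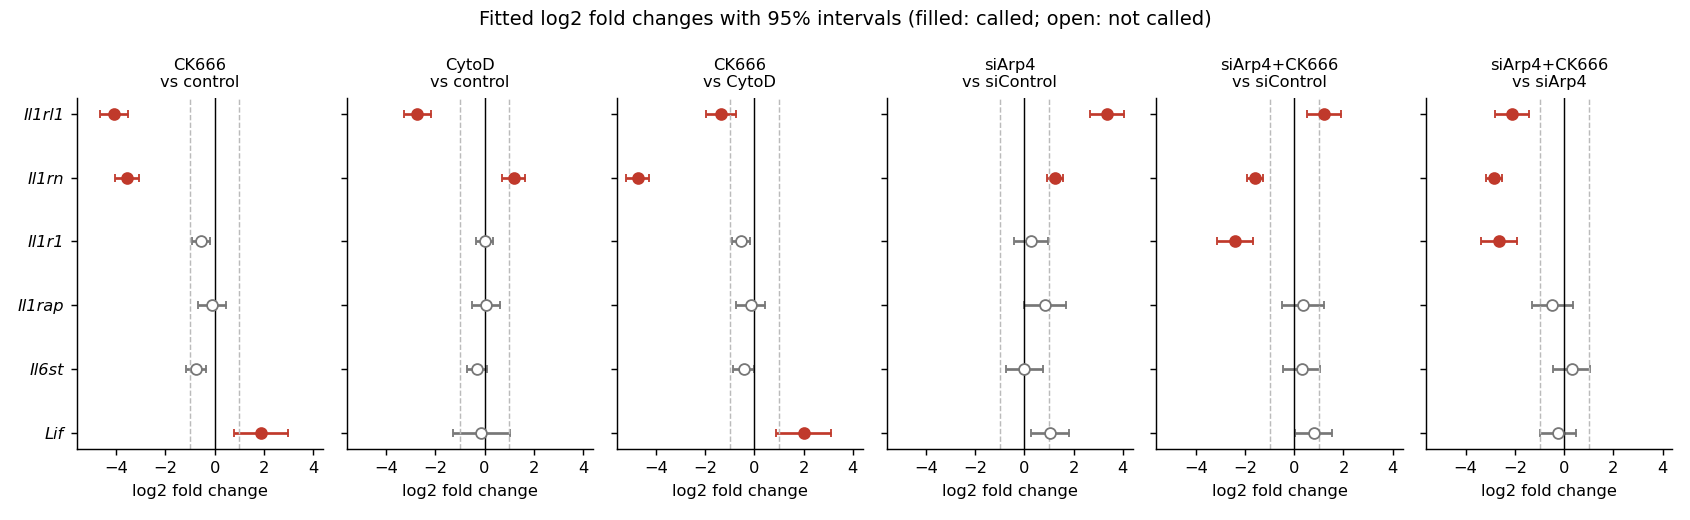
Fitted log2 fold changes (horizontal axis) with 95% intervals for 6 genes in the 6 comparisons, filled red where called and open grey where not, with dashed lines at a log2 fold change of 1 in either direction. Il1rl1 ran from -4.09 to 3.35 and Il1rn from -4.75 to 1.25, the lowest values being in the contrasts taken to be behind the choice of genes, whereas Il1rap and Il6st were called in none.

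Il1rl1, the interleukin 33 receptor ST2, was lower with CytoD than in control cells and higher than siControl in both groups with the Arp4 siRNA. Its normalized counts were 730.3, 596 and 704 in control, 32.4, 45.9 and 40.9 in CK666 and 54.2, 134 and 118 in CytoD libraries. All control libraries were above all CytoD libraries, which in turn were above all CK666 libraries. The CK666 mean was 5.87% and the CytoD mean 15.0% of the control mean. The log2 fold change with CK666, a value taken to be behind the choice, was -4.09 (SE 0.30), and CK666 against CytoD stood at -1.36 (SE 0.31). CytoD lowered Il1rl1 by a log2 fold change of -2.73 (SE 0.28), a value fixed by the 2 contrasts taken to be behind the choice.

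Depletion of Arp4 moved Il1rl1 the other way. The counts were 278, 148 and 139 in siControl, 1763, 1700.0 and 2294 in siArp4 libraries and 605, 414 and 289 in siArp4+CK666 libraries. All siArp4 libraries were above all siArp4+CK666 libraries, and these above all siControl libraries, although the lowest siArp4+CK666 library, at 289, lay close to the highest siControl library. In siArp4+CK666 and in siControl cells Il1rl1 was highest in replicate 1, which had relatively more counts on long genes than the others. The siArp4 mean was 10.2 times the siControl mean, a log2 fold change of 3.35 (SE 0.35 and adjusted p = 2.53e-19 in DESeq2). CK666 added to siArp4 cells lowered the gene to 22.7% of its siArp4 mean, a log2 fold change of -2.14 (SE 0.35 and adjusted p = 5e-08). What remained was above siControl with a fitted log2 change of 1.21 (SE 0.36 and adjusted p = 0.00281), a call lost in edgeR (adjusted p = 0.012), with only those 2 groups fitted (0.0142), in a test against a fold of 2, and when siArp4+CK666 replicate 1 (0.0432) or 2 (0.0138) or siControl replicate 3 (0.0307) was left out. The mesenchymal sums, mostly collagen counts, were likewise lower in CK666 than in control cells and higher in siArp4 than in siControl cells. Mean Mcpt8 differed the same way, but it was not called and its libraries overlapped in both contrasts. Of the same list, Kit was higher (71.4 against 49.5) and Cma1 lower (3.95 against 15.5) on average in siArp4 than in siControl cells. The part of these markers in the Il1rl1 values was not tested.

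**Figure D3:**
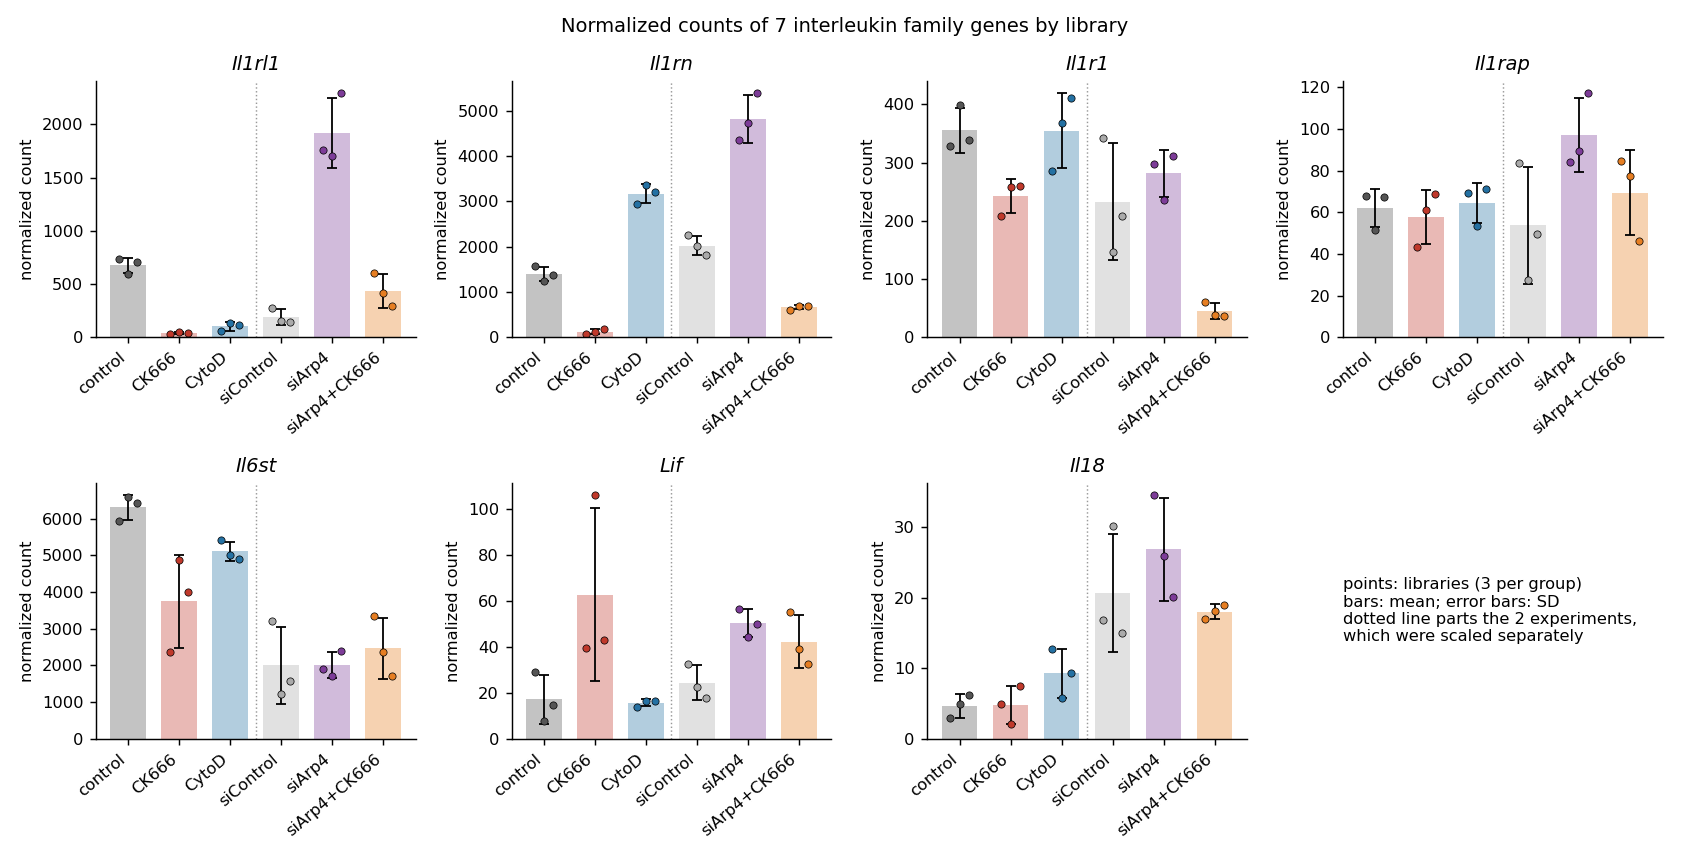
Normalized counts by library (points) with group means (bars) and SD (error bars, n = 3) for 7 genes, with a dotted line between the experiments, which were scaled separately. Il1rl1 and Il1rn were lowest in CK666 and highest in siArp4 libraries, Il1r1 was lowest in siArp4+CK666 libraries, and the siControl points of Il1r1, Il1rap and Il6st are widely spread.

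Il1rn encodes the receptor antagonist that restrains interleukin 1. Its normalized counts were 1568, 1248 and 1378 in control, 67.8, 112 and 174 in CK666 and 2953, 3359 and 3202 in CytoD libraries. The 3 groups were fully separate, with the CK666 mean at 8.43% and the CytoD mean at 227% of the control mean. The fold change with CK666 was -3.57 on the log2 scale (SE 0.24), and that of CK666 against CytoD, taken to be behind the choice, was -4.75 (SE 0.24). CytoD raised Il1rn by 1.18 (SE 0.23), again the difference of the 2 contrasts taken to be behind the choice. By these values CytoD moved the antagonist and the receptor Il1rl1 in opposite directions.

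In transfected cells the counts of Il1rn were 2247, 2021 and 1807 with siControl, 4349, 4728 and 5392 with siArp4 and 610.1, 694 and 690.3 with siArp4+CK666. No groups overlapped, and siArp4+CK666 was the lowest. Arp4 depletion raised the gene 2.38-fold, a log2 fold change of 1.25 (SE 0.16 and adjusted p = 1.15e-13 in DESeq2). CK666 lowered it in siArp4 cells to 13.8% of its siArp4 mean, with a log2 value of -2.86 (SE 0.16 and adjusted p = 7.29e-67), and to 32.8% of the siControl mean (log2 fold change -1.61, SE 0.16, adjusted p = 1.38e-21). Unlike Il1rl1, then, the antagonist ended below siControl when both treatments were combined.

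Il1r1, the signaling receptor for interleukin 1, was called lower in siArp4+CK666 cells, against both other groups of its experiment, and in no other pairwise comparison. Its normalized counts were 328, 399 and 338 in control, 208, 258 and 260.4 in CK666 and 285, 369 and 411 in CytoD libraries. The CK666 libraries were all below the control libraries, with a log2 fold change of -0.55 (SE 0.19) that did not reach the fold required for a call. CytoD and control overlapped, with an interval of -0.36 to 0.36 for the log2 fold change. In the second experiment the counts were 343, 147 and 208 in siControl, 298, 235 and 312 in siArp4 libraries and 60.3, 37.2 and 35.8 in siArp4+CK666 libraries. All siArp4+CK666 libraries lay below every other library of that experiment. Arp4 depletion alone gave a log2 fold change of 0.27 (SE 0.35 and adjusted p = 0.598 in DESeq2), within the wide spread of siControl. Among siControl libraries Il1r1 was highest in replicate 1 and lowest in replicate 2, the libraries with relatively most and fewest counts on long genes. CK666 in siArp4 cells lowered Il1r1 to 15.8% of the siArp4 mean, a log2 fold change of -2.67 (SE 0.37 and adjusted p = 5.22e-11), and against siControl the fall was -2.39 (SE 0.37 and adjusted p = 1.71e-09).

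Il1rap, the coreceptor that both IL1R1 and ST2 need, was called in no comparison. Its normalized counts were 67.7, 51.6 and 67.3 in control, 43.2, 61.2 and 68.8 in CK666 and 69.1, 53.2 and 71.1 in CytoD libraries, which overlapped throughout. They were 83.8, 27.7 and 49.5 with siControl, 84.2, 89.6 and 117 with siArp4 and 84.6, 77.3 and 46.4 with siArp4+CK666. The siArp4 libraries were just above all siControl libraries, with a log2 fold change of 0.84 (interval -0.00 to 1.68, adjusted p = 0.119 in DESeq2). Without siControl replicate 1, one of the uneven libraries, the value was 1.31 and the gene was called (adjusted p = 0.00562).

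The interleukin 1 family ligands were scarce. Il33, the ligand of ST2, had between 0 and 7 counts per library, and 17 of the 18 libraries had 3 counts or fewer, so no fold is given. Il18 had 2 to 41 counts. In the first experiment its normalized counts were 2.9, 4.87 and 6.21 in control, 4.91, 2.04 and 7.44 in CK666 and 12.8, 5.81 and 9.27 in CytoD libraries, with means under 10. In the second they were 16.8, 30.2 and 14.9 with siControl, 34.5, 25.9 and 20.04 with siArp4 and 16.9, 18.1 and 19 with siArp4+CK666. The siArp4+CK666 libraries were all below the siArp4 libraries, but the log2 fold change of -0.58 (SE 0.47) did not pass the test (adjusted p = 0.515 in DESeq2). Of the other 7 ligands of the family in the table, Il1b had no count in any of the 18 libraries (a count of 0 leaves room for 3 per library), and Il1a had at most 3 counts in any library. Il1r1 and Il1rn were thus measured in libraries with almost no counts of either agonist.

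Il1rl1 and its neighbour Il1rl2 moved in opposite directions in siArp4 cells. Among the 6 receptor genes of the cluster, Il1r2 and Il18r1 had mean counts of 0.22 and 1.03 and are left aside, leaving Il1r1, Il1rl2 (the interleukin 36 receptor), Il1rl1 and Il18rap (the accessory chain of the interleukin 18 receptor). Il18rap had normalized counts of 298, 292 and 336 in control, 26.5, 33.6 and 35.3 in CK666 and 72.3, 69.7 and 80.4 in CytoD libraries, 3 groups that did not overlap and stood in the same order as Il1rl1. Its log2 fold change was -3.28 (SE 0.23) with CK666 and -2.06 (SE 0.20 and adjusted p = 3.15e-23 in DESeq2) with CytoD. It was not called in siArp4 cells, with counts of 184, 61.6 and 65.4 in siControl and 111, 109 and 111 in siArp4 libraries (log2 fold change 0.08, SE 0.46, adjusted p = 0.915). Il1rl2 was at 251, 182 and 175 with siControl, 56.4, 74.5 and 79.2 with siArp4 and 40.2, 38.1 and 27.4 with both treatments. It thus fell where its neighbour Il1rl1 rose, by 1.54 on the log2 scale in siArp4 cells (SE 0.28 and adjusted p = 6.72e-07). CK666 and CytoD did not lead to a call for Il1rl2 in untransfected cells.

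**Figure D4:**
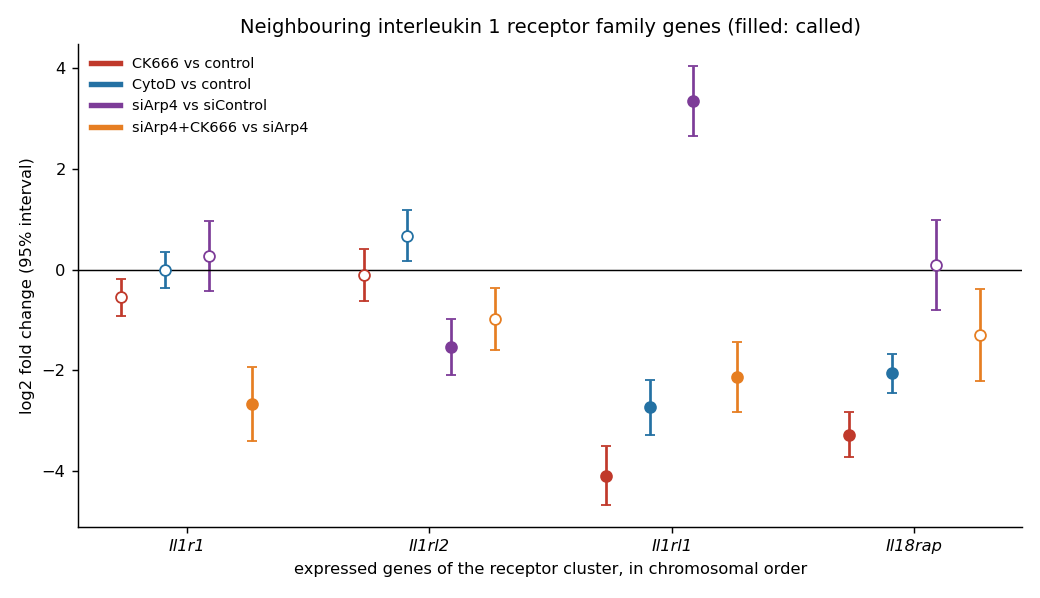
Log2 fold changes with 95% intervals (vertical axis) of the 4 expressed genes of the receptor cluster, in chromosomal order, in 4 comparisons given by colour, filled where called. With siArp4, Il1rl1 rose by 3.35 while Il1rl2 beside it stood at -1.54, and CK666 and CytoD lowered both Il1rl1 and Il18rap.

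At the other cluster, the ligand genes upstream of Il1rn were mostly silent. Il1f10 (interleukin 38) had 0 counts in all 9 libraries of the first experiment, and normalized counts of 0, 2.52 and 2.8 in siControl, 66.5, 63.7 and 48.1 in siArp4 libraries and 1.06, 1.91 and 4.21 in siArp4+CK666 libraries. It followed the direction of Il1rn in siArp4 cells, with a log2 fold change of 5.16 (SE 0.80 and adjusted p = 2.43e-09 in DESeq2), and with CK666 added to them, at -4.64 (SE 0.73 and adjusted p = 8.98e-09). Il1f9 (interleukin 36 gamma) was at 2.52, 6.29 and 6.54 with siControl, at 22.7, 30.2 and 23 with siArp4, and at 33.8, 50.5 and 33.7 with both treatments. It rose in siArp4 cells (2.34, SE 0.56, adjusted p = 0.000177) and stood at 2.99 above siControl with CK666 added (SE 0.55, adjusted p = 4.65e-07), where Il1rn was lower than siControl.

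Of the interleukin 6 family, the shared receptor chain Il6st was abundant and was called nowhere. Its normalized counts were 5931, 6580.0 and 6415 in control, 2372, 4871 and 4012 in CK666 and 5411, 5015 and 4890.0 in CytoD libraries. Control libraries were above all CK666 and CytoD libraries, with log2 fold changes of -0.75 (SE 0.21) with CK666 and -0.31 (SE 0.21) with CytoD. In the second experiment the counts were 3206, 1232 and 1565 in siControl, 1898, 1718 and 2398 in siArp4 libraries and 3352, 2369 and 1700.0 in siArp4+CK666 libraries. The 3 groups overlapped. Among siControl libraries Il6st was highest in replicate 1, which had relatively more counts on long genes, and lowest in replicate 2, which had relatively fewer. The siArp4 value was 0.00, and -0.065 with a trend on gene length removed. Its interval ran from -0.75 to 0.76 (adjusted p = 0.998 in DESeq2).

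Lif, which signals through LIFR and gp130, had the most counts of the 3 interleukin 6 family ligands. It was at 29, 7.79 and 14.5 in control, 39.3, 106 and 42.8 in CK666 and 13.8, 16.5 and 16.5 in CytoD libraries. All CK666 libraries were above all control and CytoD libraries, and CK666 replicate 2 stood well above the others. The log2 fold change with CK666 was 1.87 (SE 0.56) and that against CytoD 2.01 (SE 0.57). Without CK666 replicate 2 the values were 1.27 and 1.40, and neither was called. The first was also lost without control replicate 2 (1.52) or 3 (1.77), and the second without CytoD replicate 1 (1.93). CytoD left Lif overlapping with control (log2 fold change -0.13, interval -1.29 to 1.03).

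In transfected cells Lif was at 32.7, 22.6 and 17.8 with siControl, 56.4, 44.3 and 50.1 with siArp4 and 55, 39.1 and 32.7 with siArp4+CK666. The siArp4 libraries were all above siControl, but the log2 fold change of 1.04 (SE 0.39) missed the threshold (adjusted p = 0.0246 in DESeq2) and passed it without siControl replicate 1 (1.33, adjusted p = 0.00991). CK666 in siArp4 cells gave -0.25 (interval -0.98 to 0.47, adjusted p = 0.781), with overlapping groups. Il6 had between 0 and 12 counts per library and Il11 between 0 and 5, with 0 counts of Il11 in all 3 CK666 libraries, and no fold is given for either.

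CK666 was given both to untransfected and to Arp4-depleted cells, and the difference between its 2 effects was fitted over all 18 libraries. It contains CK666 against control, so members are described without p-values. Of 7 tested members, 1 was called higher and 1 lower, beside 1.90% and 2.52% of all genes. For Il1rl1 the difference was 1.94 (SE 0.48), a smaller fall with CK666 in siArp4 cells. For Il1r1 it was -2.12 (SE 0.40), a larger fall in siArp4 cells. Il1rn fell in both settings, with a difference of 0.70 (interval 0.09 to 1.31) that was not called. Lif, at -2.13 (interval -3.43 to -0.83), was not called over all libraries and was called without CK666 replicate 1 (-2.38) or control replicate 1 (-2.76). Since cells given the control siRNA and CK666 were not analysed here, Arp4 depletion and transfection itself cannot be told apart in this difference.

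The rest of the interleukin 1 pathway was read from lists of genes, counted by the same call. From each count the called genes with the largest changes are named only if their mean was at least 100 normalized counts (20 where none reached that), so scarcer genes that moved further, such as Lbp, Cish and Cxcl1, are counted without being named beside it. Over the 7 fitted contrasts the median of all genes tested lay between -0.05 and 0.02. Of 16 genes of signal transduction, all tested, CK666 and CytoD each called 2 higher and none lower against control. Myd88, the adaptor of the receptors, was among both, at 1.06 (SE 0.13) and 1.07 (SE 0.13), with Ikbkg (1.02) in CK666 and Irak3 (1.06) in CytoD cells. Against CytoD, CK666 called 1 lower, Irak3 at -1.75. In siArp4 cells 2 were higher and 1 lower, among them the kinase Irak2 at 1.5 (SE 0.14 and adjusted p = 1.05e-25 in DESeq2) and Map3k7 at -1.19. In siArp4+CK666 cells 3 were higher and 1 lower than in siControl, among them Tab2 at 1.47 and Irak2 at 1.46. Irak2 had 2169, 1859 and 1861 normalized counts in siControl and 5095, 5435 and 6127 in siArp4 libraries. CK666 within siArp4 cells, and the difference of its effects, each called Irak3 lower and no other gene, at -1.83 and -1.14. Irak3 encodes a brake on the pathway. The list medians ran from -0.00 to 0.36.

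Of the other 7 ligands of the interleukin 1 family, 2 at most could be tested in any contrast. The 2 called in siArp4 cells were Il1f9 and Il1f10, against siControl Il1f9 was called higher in siArp4+CK666 cells, Il1f10 was called lower with CK666 within siArp4 cells, and none was called elsewhere. Of the other 8 receptors and decoys, with 3 or 4 tested, Il18rap was called lower with CK666, with CytoD and in CK666 against CytoD (-1.22) and its CK666 effect differed between settings by 1.97, Il1rl2 was called lower than siControl in siArp4 and in siArp4+CK666 cells (-2.52), and none was called with CK666 within siArp4 cells. The interleukin 18 decoy Il18bp stayed between 9.83 and 48.6 normalized counts in all libraries. The list medians ran from -1.999 to 3.75 for ligands and from -1.22 to 0.27 for receptors.

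Of 8 proteases and inflammasome genes that act on these ligands, 6 were tested. CytoD raised 2, Casp1 (2.12, SE 0.33, adjusted p = 2.04e-09 in DESeq2) and Gsdmd (from 18.4, 17.5 and 32.1 normalized counts in control to 57.4, 86.2 and 48.4 in CytoD libraries), Casp1 was lower in CK666 than in CytoD cells (-1.37), and siArp4 lowered 2, Gsdmd (-1.97, SE 0.34, adjusted p = 6.55e-08) and Casp4 (-1.07). Gsdmd was also lower in siArp4+CK666 than in siControl cells (-2.83), and the other 3 contrasts called none. The myeloid markers Cd68 and Lyz2 were higher with CytoD as well, and their part in the rise of Casp1 and Gsdmd was not tested. The medians ran from -0.49 to 0.91.

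Of 25 genes that respond to NF-kB, 16 to 18 were tested per contrast. CK666 called 2 higher and 3 lower than control, among them the chemokines Ccl2 (-3.93, SE 0.25) and Ccl7 (-2.69), and CytoD called 1 higher and 3 lower, among them Ptgs2 (-2.67, SE 0.15, adjusted p = 5.18e-65 in DESeq2) and Ccl2 (-1.55). CK666 against CytoD called 1 higher, Ptgs2 at 3.77, and 6 lower, with Ccl2 (-2.38) among them. In siArp4 cells 2 were higher and 1 lower, among them Tnfaip2 (1.48) and Ccl2 (-1.38), and in siArp4+CK666 cells 3 were higher and 3 lower than in siControl, among them Ccl2 (-4.36) and Ccl7 (-2.03). CK666 within siArp4 cells lowered 3 and raised none, among them Ccl2 (-2.99, SE 0.34, adjusted p = 8.34e-17) and Ccl7 (-2.51), and the difference of CK666 effects called 1 lower, Ptgs2 at -1.67. Ccl2 was thus lower than its control in every treated group, including siArp4 cells, in which Il1rl1 and Il1rn were raised. The medians ran from -0.35 to 0.30.

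On the interleukin 6 side, of 7 other receptor chains 4 or 5 were tested and few were called. Il6ra, which binds interleukin 6, was at 555, 495 and 506 in control and 84.5, 142 and 94.8 in CK666 libraries (-2.28, SE 0.19), groups far apart, and at 345, 410.3 and 449.9 with siArp4 and 642, 479.8 and 329 with siArp4+CK666, which overlapped (0.27, SE 0.40, adjusted p = 0.788 in DESeq2). It was the 1 receptor called lower with CK666 against control, and the 1 called in the difference of CK666 effects, at 2.54 (SE 0.46). Against CytoD, CK666 called 2 lower, Il6ra at -1.99 and the Lif receptor Lifr at -1.23. No receptor of the list was called in the other 4 contrasts. Lifr had 1531 ± 129 and Osmr 1471 ± 68.6 normalized counts in control cells (SD, n = 3). The medians ran from -1.10 to 0.51.

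Of 9 other ligands of the interleukin 6 family, 4 or 5 were tested and 1 was called, Il27, higher in siArp4 and in siArp4+CK666 cells. It summed to 0 counts over the siControl libraries, which allows up to 3, to 19 over siArp4 and to 25 over siArp4+CK666 libraries. Of 7 JAK-STAT genes, all tested, siArp4 lowered Tyk2 (-1.37, SE 0.22, adjusted p = 5.23e-09 in DESeq2) and siArp4+CK666 did too (-1.63), and none was called with CK666 or CytoD against control or with CK666 within siArp4 cells. Of 13 STAT3 response genes, 12 were tested. CK666 called 2 higher and 1 lower than control, among them Cebpb (1.59) and Bcl6 (1.33), CytoD 2 higher, with the acute phase protein gene Hp (1.83, SE 0.17, adjusted p = 1.71e-24) among them, and CK666 against CytoD 2 higher and 3 lower, among them Hp (-2.19) and Cebpb (1.63). In siArp4 cells 1 was higher, Bcl6 (1.21), and 2 were lower, with Hp (-1.21) among them, and in siArp4+CK666 cells 2 were higher and 2 lower than in siControl, among them Bcl6 (2.03) and Hp (-1.71). Timp1 was called lower with CK666 within siArp4 cells (-1.79), and Socs3, a feedback inhibitor that STAT3 induces, in the difference of CK666 effects (-1.07). The medians ran from -0.68 to 0.38 for ligands, from -0.35 to 0.19 for JAK-STAT genes and from -0.32 to 0.13 for STAT3 response genes.

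The genes most like a member were sought for the 4 members with a mean of at least 100 normalized counts, as the 2 highest Pearson correlations of log2(normalized count + 1) over the 18 libraries among 10319 genes. The points share their libraries, groups and scaling, so the values describe these libraries only. For Il1rl1 they were Nrg1 (0.969) and Jun (0.961), for Il1rn Stat5a (0.966) and Rspo2 (0.941), for Il1r1 Vcan (0.972) and Gvin1 (0.950), and for Il6st Edc4 (0.985) and Snrnp200 (0.981). Among the members themselves the highest value was 0.624, between Il1rl1 and Il1rn, and Il1rl1 with Il1r1, of the same cluster, gave -0.03.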

How the data were processed

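RNA-seq of 18 libraries in 6 groups of 3 was read from 1 table of estimated counts per gene, which the authors made with Salmon 1.2.1 at default settings on GRCm38 with the GENCODE vM25 annotation and deposited without scaling. How transcripts were summed to genes is not given in the sources used here. Values were rounded to whole numbers, and totals ran from 18075610 to 24733212. All columns had a sample. Symbols and positions came from GENCODE vM21 of the same build, which matched 54094 of 54347 gene identifiers.

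Each experiment of 9 libraries was fitted with DESeq2 1.42.0 (R 4.3.3) by group, and all 18 for the difference of CK666 effects. Normalized counts used the size factors of each experiment. Intervals are 95% intervals of the log2 fold change. Alternatives were edgeR 4.0.16, TMM scaling, filterByExpr, other library sets, other fold rules, a replicate block, leaving out each library and, chosen after seeing the data, removal of a length trend.

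The 10 genes and all lists (other ligands, receptors, transduction, proteases and response genes of both families, and markers of mesenchymal, leukocyte, mast and endothelial cells) were chosen with earlier results of these data known. From each list and comparison the 2 called genes with the largest change and a mean of at least 100 normalized counts (20 where none reached 100) were named, beside genes introduced as background. Folds were not given for genes with means under 10. Promoter sequences were RefSeq windows on GRCm38.p6. Results for 2 list genes are not reported here.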

Additional observations from a re-analysis of the deposited data

Results flagged for a closer look

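The effect of CK666 differed between Arp4-depleted and untransfected cells for 2 genes by the call used throughout. For Il1r1 the fitted difference over 18 libraries was -2.12 on the log2 scale (SE 0.40), and for Il1rl1 it was 1.94 (SE 0.48). The difference holds the contrast of CK666 with control, which is taken to be behind the choice of genes, so both are descriptions.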

How the results depend on the processing

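Of the member fold changes refitted under the alternatives, 826 kept their direction and their side of the call, 20 lost it, 8 gained it and 23 changed sign. Of the counts of called members, 127 stayed within 1.5 times and 6 did not. Testing against a fold change of 2 left 0 members for the difference of CK666 effects and 1 each for CK666 against CytoD, CytoD against control and siArp4 against siControl, and without a fold minimum CK666 against control called 5. Leaving out 1 library gave 2 to 4 members for siArp4 against siControl, with 4 without siControl replicate 1. The fold change of Il18 in siArp4+CK666 against siControl turned to 0.27 with the length trend removed. Il1r1 in CytoD against control became 0.003 with all 18 libraries, with filterByExpr and with only those groups, 0.001 in edgeR and with TMM scaling, and 0.079 with the length trend removed. Il6st in siArp4 against siControl became -0.001 with filterByExpr and -0.065 with the length trend removed. None of these was called under those settings. Leaving out 1 library moved Il18 in siArp4+CK666 against siControl from -0.366 to 0.179, Il1r1 in CytoD from -0.121 to 0.132, Il6st in siArp4 from -0.257 to 0.514 and Lif in CytoD from -0.487 to 0.488. Il1rap ranged from -0.246 to 0.068 in CK666 against control, from -0.298 to 0.016 against CytoD, and from -0.07 to 0.17 in CytoD against control. The cause was not tested. Il1rn was called in the difference of CK666 effects without CK666 replicate 3 (1.09).

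Replicate numbers were not used to pair the samples. Correlations of same-numbered libraries ran from -0.608 to 0.786, and not every library correlated best with its own number. Such correlations also carry the unevenness on gene length, so they cannot show whether same-numbered libraries were prepared together. With a replicate block Lif in CK666 against control was 1.83 and lost its call.

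Over all genes, counts called went without a fold minimum from 1599 to 4381 (CK666 against control), 1251 to 4067 (CytoD), 1778 to 4779 (CK666 against CytoD), 2494 to 3867 (siArp4), 811 to 1395 (CK666 in siArp4 cells) and 597 to 1056 (difference of effects). Against a fold of 2 they were 349, 147, 438, 431, 145 and 58 in that order, and 792 in place of 3150 for siArp4+CK666 against siControl. In edgeR CK666 in siArp4 cells called 483 and the difference 329. Ranks per kilobase moved in 15 of 60 cases with the longest transcript as length. At these depths Il33, Il6 and Il11 gave too few counts to compare.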
